A study of Drosophila melanogaster with 27 samples.

Results

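The mitochondrial respiratory chain passes electrons from food-derived substrates to oxygen, and ATP synthase uses the proton gradient built on the way to make ATP. Complex II (succinate dehydrogenase) feeds electrons from the citric acid cycle into ubiquinone, complex III hands them to cytochrome c, complex IV (cytochrome c oxidase) reduces oxygen, and complex V is ATP synthase. In the fly head the chain supplies neurons, photoreceptors and muscle, and in Drosophila many nuclear genes of the chain have a duplicate that is used mainly in the testis.

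The genes described here are the nuclear genes of complexes II to V in the age experiment of a series on Lsp2, mTORC1 and translation in Drosophila melanogaster. They were chosen by symbol: names starting with Sdh, UQCR-, COX or ATPsyn, plus RFeSP, Cyt-c1, ox, Cyt-c-p, Cyt-c-d, levy, cype and blw. The rule found 49 of the 11923 genes in the table, namely 7 of complex II, 11 of complex III, 2 cytochromes c, 13 of complex IV and 16 of complex V. Of these, 35 encode subunits (cytochrome c-p counted among them), 12 are paralogues whose names end in L, 1 is the assembly factor Sdhaf3 and 1 is the second cytochrome c gene, Cyt-c-d. The catalytic subunits that the mitochondrial genome encodes are not analysed here, as 0 genes in the table carry the mt: prefix. By the FlyBase gene identifiers matched to the annotation, 9 members lie on chromosome 2L, 11 on 2R, 9 on 3L, 15 on 3R, 1 on 4 and 4 on X.

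RNA was taken from female heads of the wild-type strain Oregon-R on standard food at 25 °C, 20 heads pooled per sample. The old flies were 50 days of age and the young flies 3 days, with 3 biological replicates each, and no transgene or diet change was applied to either. The series has 27 samples in 9 groups; 21 samples of other genotypes, diets and treatments were left aside. The deposited values are read as FPKM, fragments per length of transcript and per depth of the library, which is a level per length and so can be compared between genes.

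Deposited values summed to 504504 to 539645 FPKM in the 50-day libraries and to 427992 to 502587 FPKM in the 3-day libraries. Sequencing depth is not given in the sources used here, so only the spread of the replicates shows how precise a level is. Among the 8742 genes averaging 1 FPKM or more, 1604 were called higher and 1814 lower at 50 days (limma, Benjamini-Hochberg adjusted p under 0.05), and the median log2 change of all genes was -0.0011 after scaling by trimmed-mean factors. Without those factors the split was 1138 higher and 2271 lower, and with libraries rescaled to the same sum it was 734 higher and 3125 lower. Photoreceptor markers summed to 16526 to 21235 FPKM at 50 days and 20256 to 23638 FPKM at 3 days. Most of that sum was ninaE, which averaged 14494 FPKM at 50 days and 15286 FPKM at 3 days and was not called. Of the 6 photoreceptor markers 3 were called lower (median log2 change -0.42). All 5 ovary germline markers stayed at or below 0.161 FPKM in every library.

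Subunit transcripts of every complex from II to V had members called lower in old heads. Of the 37 members that passed the filter on low values, 33 were called lower at 50 days and 0 higher, where 20.8% of all tested genes were called lower and 18.3% higher. All 33 are among the 35 subunits. Per complex, 4 of 4 subunits of complex II were called lower (median log2 change -0.75), 9 of 9 of complex III (-0.64), 1 of 1 of cytochrome c (-1.06), 7 of 9 of complex IV (-0.58) and 12 of 12 of complex V (-0.73). Over the 35 subunits the median log2 change was -0.67, with a range of -1.06 to 0.12. The median of their ratios of scaled means, 50 days over 3 days, was 0.623.

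Subunit transcripts are abundant: 33 of the 35 averaged at least 100 FPKM over the 6 libraries. Among the 720 genes at that level, 27.6% were called lower and the median log2 change was 0.13. Every 50-day library lay below every 3-day library for 34 of the 35 subunits, on scaled and on deposited values alike. The exception was COX7A. On scaled values 28.3% of all tested genes were separated in that direction, and the share on deposited values was not computed. Subunit genes are short, with a median exon length of 894 bases against 2160 for all tested genes, and with the length trend of each library removed the subunits' median change was -0.74.

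**Figure D1:**
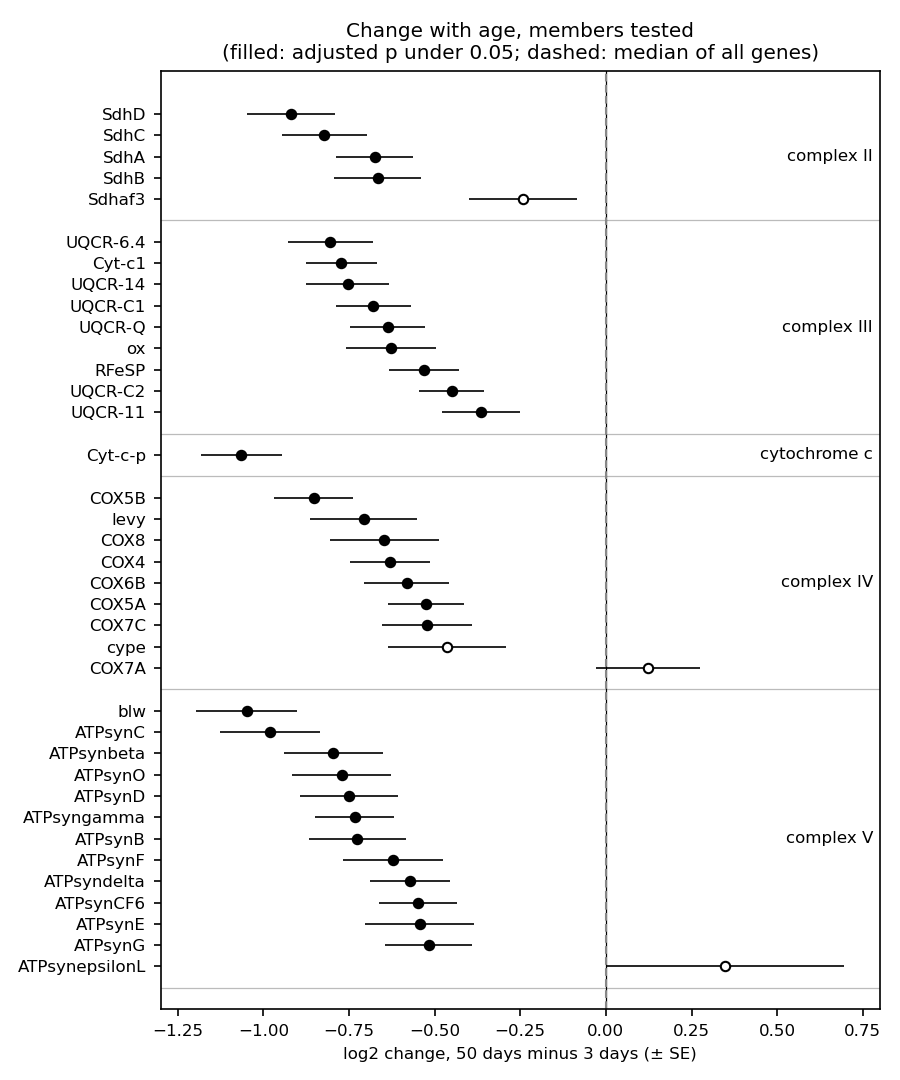
Log2 change (50 days minus 3 days, log2(FPKM + 1) of scaled values) of the 37 tested members with its SE, grouped by complex, filled where the adjusted p was under 0.05. All points but COX7A (0.12) and ATPsynepsilonL (0.35) lie below 0, and Cyt-c-p (-1.06) and blw (-1.05) lie lowest.

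In these pooled heads, fewer cells of a type and less RNA per cell cannot be told apart. Levels of cell type markers also differed between the ages: 9 of 12 muscle markers were called lower and 1 higher (median log2 change -0.86), and their summed level was 946 to 1196 FPKM at 50 days and 1928 to 3186 FPKM at 3 days. Neuronal markers were called lower for 5 of 6 (median -0.53), with sums of 279 to 335 FPKM at 50 days and 405 to 482 FPKM at 3 days. Fat body markers had 4 of 7 called higher (median 1.38), and none of the muscle, neuronal or fat body markers was at 0 in all libraries. The part of cell composition in the results below was not tested.

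The summed level of all 35 subunits made up 1.74% ± 0.0563 at 50 days and 3.48% ± 0.173 at 3 days of the library sum (SD, n = 3 each). By library the sums were 9205, 9102 and 8792 FPKM at 50 days, against 15461, 14809 and 17857 FPKM at 3 days, so the groups did not overlap. The share also depends on what else fills the library: the 7 fat body markers, yolk proteins among them, held 6.87% ± 1.48 at 50 days and 3.20% ± 1.09 at 3 days. After scaling by the trimmed-mean factors, the 50-day sum was 0.608 of the 3-day sum for all subunits.

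By complex, the scaled sum at 50 days was 0.575 of that at 3 days for complex II, 0.631 for complex III, 0.477 for cytochrome c, 0.676 for complex IV and 0.578 for complex V. As shares of the library, complex II held 0.124% ± 0.0129 at 50 days and 0.260% ± 0.0157 at 3 days, and complex III held 0.381% ± 0.0148 at 50 days and 0.737% ± 0.0354 at 3 days. Complex IV held 0.468% ± 0.0177 at 50 days and 0.843% ± 0.0373 at 3 days. Complex V was the largest block at both ages, with 0.697% ± 0.0156 at 50 days and 1.47% ± 0.103 at 3 days. In each complex all 3 of the 50-day libraries lay below all 3 of the 3-day libraries.

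**Figure D2:**
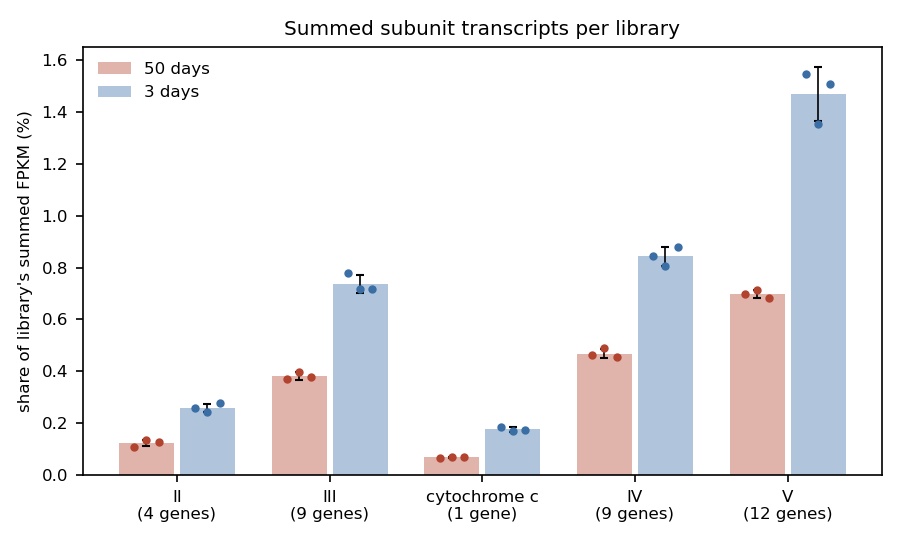
Share of the summed FPKM of each library held by the subunits of each complex, in percent, with a point per library, the mean as a bar and the SD (n = 3) as an error bar, for 50 days (left) and 3 days (right). Points of the ages do not overlap in any complex, and complex V holds the largest share, 0.697% at 50 days and 1.47% at 3 days.

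In complex II, SdhA is the flavoprotein that oxidises succinate and SdhB the iron-sulphur protein that carries the electrons on. SdhA had 118, 146 and 138 FPKM at 50 days, against 208, 225 and 261 FPKM at 3 days (log2 change -0.68, SE 0.11, adjusted p 0.00260). SdhB had 137, 150.4 and 154 FPKM at 50 days, against 222, 239.7 and 301 FPKM at 3 days (log2 change -0.67, SE 0.13, adjusted p 0.00455). For both, each old library was below each young library, and the third 3-day library was the highest. SdhC and SdhD anchor this head in the inner membrane and bind ubiquinone. SdhC had 188, 201 and 189.6 FPKM at 50 days, against 348, 336 and 428 FPKM at 3 days (log2 change -0.82, SE 0.12, adjusted p 0.00163). SdhD had 147, 183 and 170.2 FPKM at 50 days, against 327, 301 and 397 FPKM at 3 days (log2 change -0.92, SE 0.13, adjusted p 0.00127), the lowest log2 change of the complex. Again no old library reached a young one. Summed, the membrane anchor pair stood at 0.543 of its 3-day level and the catalytic pair at 0.623.

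The ratio of SdhA to SdhB was 0.862, 0.968 and 0.896 at 50 days, against 0.937, 0.939 and 0.866 at 3 days, with overlapping ranges. Sdhaf3, a factor that helps the iron-sulphur subunit mature, had 14.2, 16.3 and 24.6 FPKM at 50 days, against 23.9, 22.0 and 23.1 FPKM at 3 days. The third 50-day library exceeded all 3 of the young libraries, and the other two old libraries lay below them, so the groups overlapped (log2 change -0.24, SE 0.16, adjusted p 0.257). Without that old library the log2 change was -0.44 with adjusted p 0.0120, and over the alternatives the adjusted p ran from 0.0120 to 0.586.

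In complex III, Cyt-c1 and the Rieske iron-sulphur protein RFeSP carry electrons from ubiquinol to cytochrome c. Cyt-c1 had 161, 152 and 155 FPKM at 50 days, against 305, 281 and 279 FPKM at 3 days (log2 change -0.77, SE 0.10, adjusted p 0.00103). RFeSP had 174, 186 and 174 FPKM at 50 days, against 272, 261 and 299 FPKM at 3 days (log2 change -0.53, SE 0.10, adjusted p 0.00481). Both were lower in all old libraries. The core proteins UQCR-C1 and UQCR-C2 face the matrix and descend from a processing peptidase. UQCR-C1 had 201, 210.5 and 208 FPKM at 50 days, against 341, 335 and 399 FPKM at 3 days (log2 change -0.68, SE 0.11, adjusted p 0.00225). UQCR-C2 had 155, 152 and 154 FPKM at 50 days, against 230.4, 236 and 214 FPKM at 3 days (log2 change -0.45, SE 0.09, adjusted p 0.00708). Each was lower in all old libraries than in any young one.

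The remaining 5 are small accessory subunits, with UQCR-6.4 and UQCR-11 at the ends of the range of log2 changes in complex III. UQCR-6.4 had 106, 121 and 109 FPKM at 50 days, against 230.1, 179.8 and 229 FPKM at 3 days (log2 change -0.80, SE 0.13, adjusted p 0.00194). UQCR-11 had 14.0, 12.8 and 11.4 FPKM at 50 days, against 17.1, 17.3 and 19.5 FPKM at 3 days (log2 change -0.36, SE 0.11, adjusted p 0.0365). UQCR-11 was the least abundant subunit of all at both ages, yet its old and young libraries did not overlap. Its call was lost in 7 of 14 alternative fits: without filter (adjusted p 0.0616), with the replicate block (0.0768), without any single 3-day library (0.0786, 0.0631 and 0.0881 for replicates 1, 2 and 3) and without the second or the third 50-day library (0.0977 and 0.114). Over all alternatives its adjusted p ran from 0.00122 to 0.114. UQCR-14 (-0.75), UQCR-Q (-0.64) and ox (-0.63) were also called lower.

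Cytochrome c shuttles electrons between complexes III and IV. Cyt-c-p, the form used in somatic respiration, had 359, 357 and 355 FPKM at 50 days, against 793, 757 and 871 FPKM at 3 days. The old libraries lay within a few FPKM of each other and far below the young ones (log2 change -1.06, SE 0.12, adjusted p 0.000480), the lowest log2 change of the 35 subunits. Cyt-c-d, known in Drosophila for caspase activation in developing sperm, had 0.139, 0.180 and 0.310 FPKM at 50 days, against 0.425, 0.503 and 0 FPKM at 3 days. It did not pass the filter and its groups overlapped. The genes lie next to each other on chromosome 2L, 296 bases apart on the same strand.

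In complex IV the nuclear subunits surround a core that the mitochondrial genome encodes. COX4 and COX5A bind each other and are placed early in assembly. COX4 had 196, 199.8 and 179.9 FPKM at 50 days, against 315, 298 and 352 FPKM at 3 days (log2 change -0.63, SE 0.12, adjusted p 0.00424). COX5A had 316, 302 and 292 FPKM at 50 days, against 472, 468 and 475 FPKM at 3 days (log2 change -0.53, SE 0.11, adjusted p 0.00713). Both were lower in all old libraries. COX5B, the zinc-binding subunit, had 299, 278 and 273 FPKM at 50 days, against 544, 546 and 565 FPKM at 3 days (log2 change -0.85, SE 0.12, adjusted p 0.00106). This was the lowest log2 change of complex IV, and no libraries overlapped. levy, the fly COX6A, whose loss in flies causes paralysis and neurodegeneration, had 425, 419.7 and 418 FPKM at 50 days, against 655, 681 and 915 FPKM at 3 days (log2 change -0.71, SE 0.16, adjusted p 0.00877). The third 3-day library stood above the rest, and all old libraries were lower than all young ones.

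cype, the fly COX6C, had 183, 202 and 171 FPKM at 50 days, against 281, 218 and 341 FPKM at 3 days. Its ranges did not overlap, but the young libraries were spread widely and the change missed the threshold (log2 change -0.46, SE 0.17, adjusted p 0.0649). It passed without the second 3-day library (log2 change -0.64, adjusted p 0.0178), and in 3 other alternatives: without the trimmed-mean factors (-0.57, 0.0190), with libraries rescaled to the same sum (-0.75, 0.00112) and with the length trend removed (-0.58, 0.0175). Without the third 3-day library it was -0.31 (adjusted p 0.145), and without the third 50-day library -0.38 (0.179). Over all alternatives its adjusted p ran from 0.00112 to 0.179. COX6B (-0.58), COX7C (-0.52) and COX8 (-0.65) were called lower. Without the third 50-day library COX7C (-0.43, adjusted p 0.0558) and COX8 (-0.57, adjusted p 0.0515) missed the threshold. Their adjusted p ran up to those values over the alternatives and down to 0.000131 for COX7C and 6.33e-05 for COX8.

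COX7A, a small membrane subunit, was the 1 subunit with a log2 change above 0. It had 331, 326 and 321 FPKM at 50 days, against 281, 299 and 401 FPKM at 3 days (log2 change 0.12, SE 0.15, adjusted p 0.552). The old libraries lay inside the young range, which the third 3-day library stretched upward. With libraries rescaled to the same sum its log2 change turned to -0.16 (adjusted p 0.305). It was 0.28 (adjusted p 0.0674) without the third 3-day library, 0.05 (0.838) without the first, 0.06 (0.835) without the second and 0.07 (0.801) without the first 50-day library. Without the trimmed-mean factors it was 0.01 (0.950) and with the length trend removed 0.04 (0.820), and over the alternatives its adjusted p ran from 0.0674 to 0.950. Relative to the geometric mean of the other 8 complex IV subunits in the same library, COX7A was 1.28, 1.27 and 1.35 at 50 days, against 0.713, 0.776 and 0.853 at 3 days. These ratios do not depend on the scaling of a library, and the ages did not overlap (exact two-sided permutation p 0.1, the smallest that 3 against 3 allows). COX7A was picked for this ratio after its values were known.

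**Figure D3:**
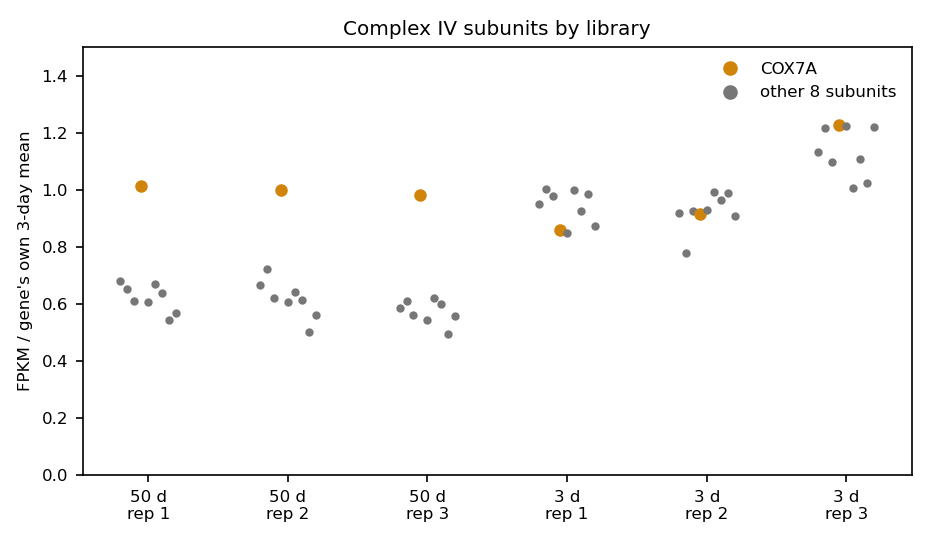
FPKM of each complex IV subunit in each library divided by the gene's own 3-day mean, for the 50-day libraries (left 3 positions) and the 3-day libraries (right 3). COX7A stays near 1 in the 50-day libraries, above all other 8 subunits there, and lies within or at the upper edge of their range in the 3-day libraries.

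In complex V, blw (alpha) and ATPsynbeta form the catalytic ring of the F1 head. ATPsynbeta had 763, 712 and 696 FPKM at 50 days, against 1469, 1261 and 1344 FPKM at 3 days (log2 change -0.80, SE 0.14, adjusted p 0.00384). blw had 461, 465 and 459.7 FPKM at 50 days, against 1008, 905 and 1205 FPKM at 3 days (log2 change -1.05, SE 0.15, adjusted p 0.00122), the lowest log2 change of the complex. No old library of either came near a young one. The ratio of blw to ATPsynbeta was 0.604, 0.653 and 0.660 at 50 days, against 0.687, 0.717 and 0.897 at 3 days, lower in all old libraries (exact two-sided permutation p 0.1).

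ATPsyngamma is the shaft that turns inside the head, and ATPsynC forms the membrane rotor. ATPsyngamma had 166, 163 and 155 FPKM at 50 days, against 289, 266 and 316 FPKM at 3 days (log2 change -0.73, SE 0.11, adjusted p 0.00193). ATPsynC had 493, 476 and 461 FPKM at 50 days, against 1002, 898 and 1162 FPKM at 3 days (log2 change -0.98, SE 0.15, adjusted p 0.00161). Both were lower in all old libraries. ATPsynO, the stalk protein that holds the head in place, had 299, 282 and 266 FPKM at 50 days, against 481, 479 and 609 FPKM at 3 days (log2 change -0.77, SE 0.14, adjusted p 0.00414). ATPsynG, a membrane subunit, had 171, 172 and 152 FPKM at 50 days, against 244, 235 and 289 FPKM at 3 days (log2 change -0.52, SE 0.13, adjusted p 0.0133), the highest log2 change of the complex V subunits. Neither overlapped between the ages. Without the third 50-day library ATPsynG had -0.43 and adjusted p 0.0520 (0.000135 to 0.0520 over the alternatives).

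The other complex V subunits called lower were ATPsynD (-0.75), ATPsynB (-0.73), ATPsynF (-0.62), ATPsyndelta (-0.57), ATPsynCF6 (-0.55) and ATPsynE (-0.54). ATPsynE missed the threshold without the second 3-day library (adjusted p 0.0563), without the second or the third 50-day library (0.103 and 0.0722) and with the replicate block (0.0564), over a range of 0.000145 to 0.103. By position in the enzyme, scaled sums at 50 days were 0.546 of those at 3 days for the head and central stalk, 0.607 for the peripheral stalk and 0.597 for the membrane part. These sums cover the rule's members only and leave out sun, an epsilon subunit given further below.

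**Figure D4:**
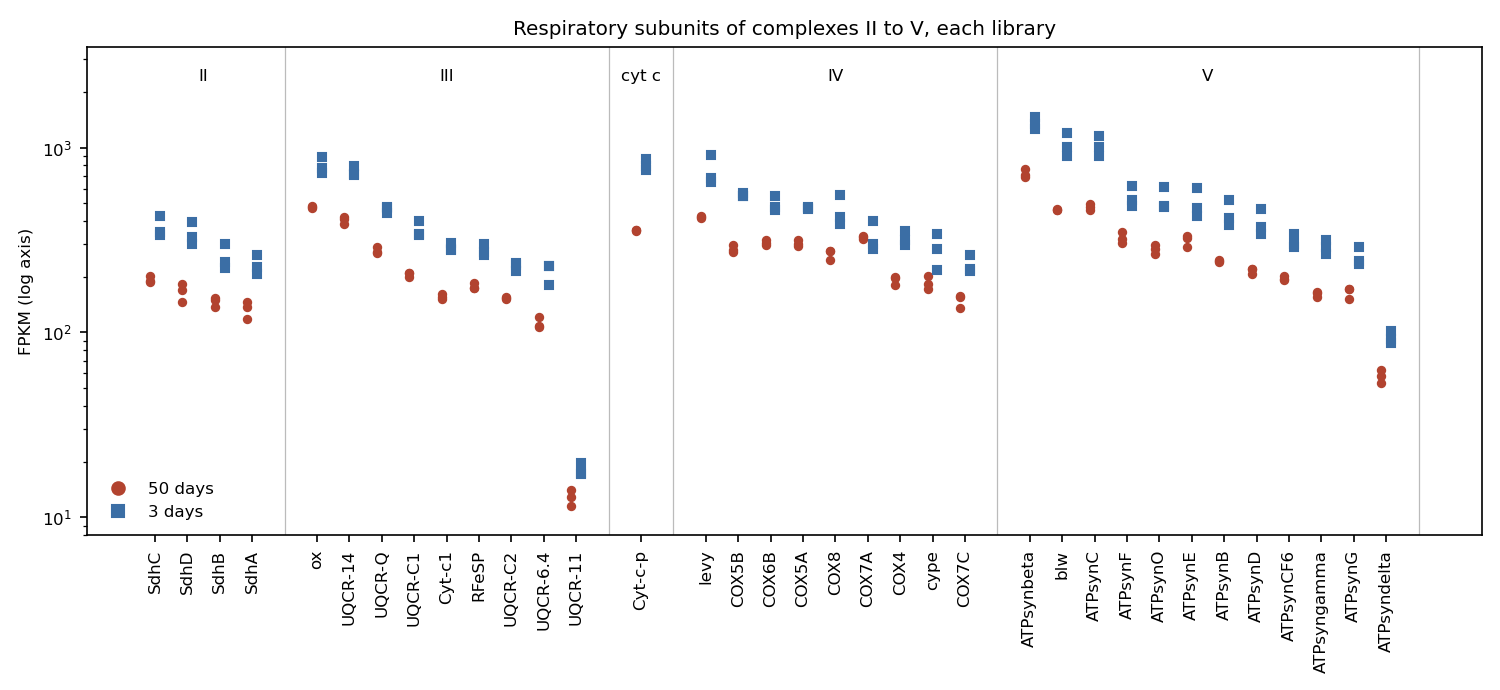
FPKM on a log axis of every subunit in each library, grouped by complex, with 50-day circles left of 3-day squares. Mean levels span 12.7 FPKM (UQCR-11) to 724 FPKM (ATPsynbeta) at 50 days and 18.0 to 1358 FPKM at 3 days, and the ages separate for every subunit but COX7A.

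The order of the subunits by level was nearly the same at both ages. ATPsynbeta was the highest, with 724 ± 35.0 FPKM at 50 days and 1358 ± 105 FPKM at 3 days (SD, n = 3 each), and ranked 109 and 33 among the tested genes at those ages. ATPsynC (477 ± 16.0 FPKM at 50 days and 1020.5 ± 133 FPKM at 3 days) and ox (476 ± 6.88 FPKM at 50 days and 796 ± 81.6 FPKM at 3 days) followed at 50 days, while blw (462 ± 2.78 FPKM at 50 days and 1039 ± 153 FPKM at 3 days) stood second at 3 days. At 50 days the libraries of ATPsynC overlapped those of ox and of blw, and at 3 days those of blw and ATPsynC overlapped. Across the 35 subunits the levels at the ages correlated with Pearson's r 0.98 and Spearman's rho 0.95, values that share libraries and gene lengths. Level and log2 change had r -0.41 and rho -0.42 over 35 subunits that share the same libraries and were measured with the same values. Within complex V this was r -0.66 and rho -0.66 over 12 subunits, within complex III r -0.61 but rho -0.17 over 9, and within complex IV r -0.27 but rho -0.70 over 9.

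The subunits also shared an order of the libraries within each age. Among the 3-day libraries the third held the highest value for 31 of 35 subunits, against 38.8% of all tested genes (scaled values). Among the 50-day libraries the first was the highest for 30 of 35, against 37.9% of all genes, and on deposited values for 23 of 35, against 18.0% of all genes. Without the third 3-day library the subunits' median log2 change was -0.56. The fat body sum was highest in the same libraries, with 43860, 36522 and 26930 FPKM at 50 days, against 9663, 13342 and 22055 FPKM at 3 days. Most of it was the yolk proteins Yp1 and Yp2, and the other fat body markers were mixed. Lsp2 was highest in the second 50-day (712 FPKM) and the first 3-day library (8.58 FPKM). At 50 days to was highest in the second library (194 FPKM) and Fbp1 in the third (7.18 FPKM), while apolpp and Obp99b had the order's highest libraries at both ages. Muscle markers summed to 946, 1112 and 1196 FPKM at 50 days, against 3186, 1928 and 2486 FPKM at 3 days. Neuronal markers summed to 279, 323 and 335 FPKM at 50 days, against 482, 427 and 405 FPKM at 3 days. The muscle and neuronal sums were thus highest in the third 50-day and the first 3-day library, and the part of any of these lists in the subunits' order was not tested. The median coefficient of variation of the subunits was 8.53% at 50 days and 11.9% at 3 days on scaled values, against 7.69% and 9.87% for all tested genes. On deposited values it was 3.93% at 50 days and 11.2% at 3 days for the subunits, against 9.51% and 9.96% for all tested genes, so at 50 days the subunits lay above all genes on the scaled values and below them on the deposited ones.

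Ratios between members within a library were computed for 10 pairs, 3 of them with COX7A, which was chosen with its values known. Of the other 7 ratios, 5 had no overlap between the ages. Those pairs too were chosen with earlier results of these data known, and the share of other gene pairs without overlap was not computed. Each of these 5 had exact two-sided permutation p 0.1 (0.125 after Benjamini-Hochberg adjustment over the 10), and since 0.1 is the smallest p that 3 against 3 allows, no ratio could have passed 0.05. Cyt-c-p over Cyt-c1 was 2.22, 2.35 and 2.29 at 50 days, against 2.60, 2.69 and 3.12 at 3 days. UQCR-C1 over UQCR-C2 was 1.29, 1.38 and 1.36 at 50 days, against 1.48, 1.42 and 1.86 at 3 days. ATPsynC over ATPsynO was 1.65, 1.69 and 1.74 at 50 days, against 2.08, 1.87 and 1.91 at 3 days. Cyt-c1 over RFeSP was 0.928, 0.817 and 0.893 at 50 days, against 1.12, 1.08 and 0.933 at 3 days, a narrow gap. In each of these pairs all old libraries were lower. SdhC over SdhD was 1.28, 1.10 and 1.11 at 50 days, against 1.06, 1.12 and 1.08 at 3 days, with overlap (exact p 0.3).

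The 12 paralogues whose names end in L were near 0 throughout. Their levels summed to 3.38, 5.09 and 2.23 FPKM at 50 days, against 3.45, 3.78 and 1.42 FPKM at 3 days, and ATPsynepsilonL was the largest single part of each sum. ATPsynepsilonL had 1.87, 3.88 and 1.05 FPKM at 50 days, against 1.62, 2.54 and 0.733 FPKM at 3 days. It was the 1 L paralogue that passed the filter, its groups overlapped, and it was not called (log2 change 0.35, SE 0.35, adjusted p 0.457). The other 11 did not pass the filter, so no change is given for them.

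Of these, COX5BL had 0.354, 0.344 and 0.0999 FPKM at 50 days, against 1.03, 0.396 and 0.235 FPKM at 3 days. UQCR-11L had 0.682, 0.323 and 0.380 FPKM at 50 days, against 0.174, 0.742 and 0 FPKM at 3 days. COX4L had 0.189, 0 and 0.106 FPKM at 50 days, against 0.392, 0 and 0.113 FPKM at 3 days. All 3 pairs of groups overlapped. COX6AL had 0, 0.225 and 0.263 FPKM at 50 days, against 0, 0 and 0 FPKM at 3 days. COX7AL had 0.265, 0 and 0.303 FPKM at 50 days, against 0, 0 and 0 FPKM at 3 days. UQCR-14L had 0, 0.245 and 0 FPKM at 50 days, against 0, 0 and 0 FPKM at 3 days. These last 3 were listed at 0 in all young libraries and in at least 1 old library. ATPsynGL had 0, 0 and 0 FPKM at 50 days, against 0.135, 0 and 0.317 FPKM at 3 days. ATPsynbetaL had 0, 0.0684 and 0.0270 FPKM at 50 days, against 0, 0.108 and 0 FPKM at 3 days. ATPsynCF6L had 0, 0 and 0 FPKM at 50 days, against 0.0803, 0 and 0 FPKM at 3 days. ATPsynGL and ATPsynCF6L were listed at 0 in all old libraries. SdhAL had 0.0205, 0 and 0 FPKM at 50 days, against 0.0210, 0 and 0 FPKM at 3 days. SdhBL had 0, 0 and 0 FPKM at 50 days, against 0, 0 and 0.0249 FPKM at 3 days. Both stayed under 0.025 FPKM in every library. None of these values passed 1.03 FPKM, and the subunits they are named after averaged 12.7 to 724 FPKM at 50 days and 18.0 to 1358 FPKM at 3 days. Of the 8 testis markers in the table, 6 were below 1 FPKM in every library and 2 were at 0 in all old libraries.

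**Figure D5:**
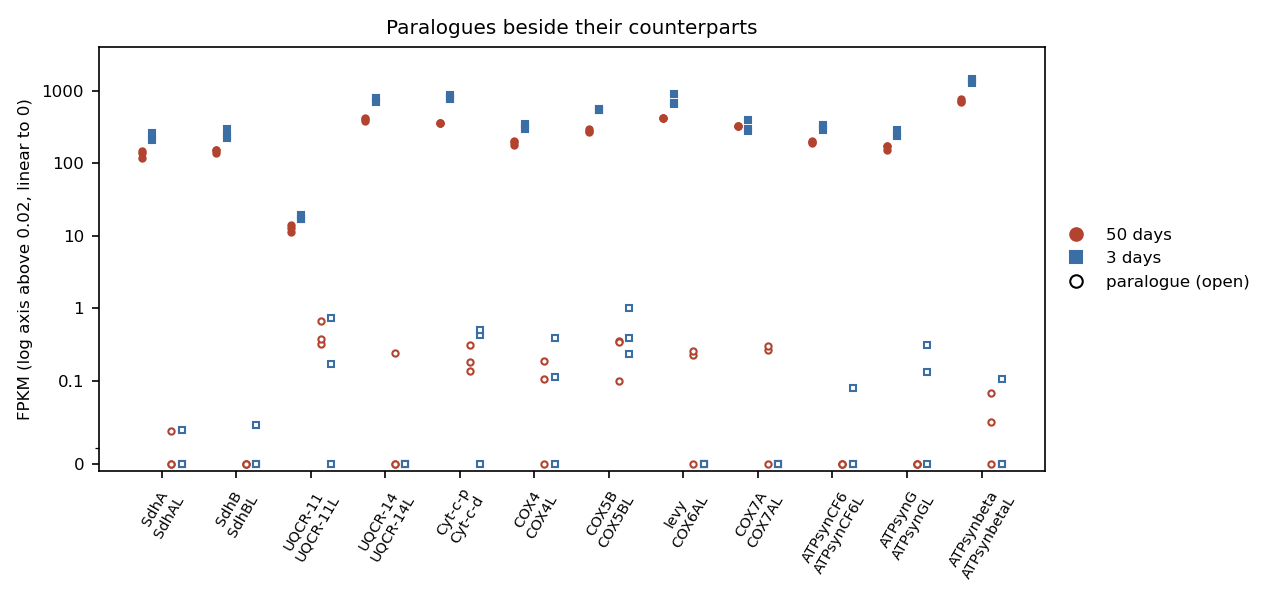
FPKM in each library (log axis, linear near 0) of 11 L paralogues and Cyt-c-d, open symbols, beside the subunit each is paired with, filled symbols, with 50-day circles left of 3-day squares. Filled symbols lie above 10 FPKM and open ones at or below 1.03 FPKM at both ages.

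COX5B and COX5BL lie 122 bases apart on chromosome 2L, and COX7A and COX7AL 2625 bases apart on 3R, so these abundant and near-silent copies are neighbours. Reads that near-identical copies share could be split between them, and the handling of such reads is not given in the sources used here. Exons of 21 members overlap another gene, 18 of them on the opposite strand, and whether counting used strand is not given either. For UQCR-14 the overlap with CG32576 covers all of its exons, but CG32576 was at 6.38 FPKM at 50 days and 6.28 FPKM at 3 days, far below UQCR-14. For COX5BL the overlap with Trmt6 is also complete, and its low values cannot be told apart from Trmt6 reads. UQCR-6.4 shares 40.5% of its exon length with POSH, Cyt-c-d 36.4% with CG31808 and ATPsyndelta 35.6% with CG2962. CG31808 averaged 126 FPKM at 50 days and 249 FPKM at 3 days, far above Cyt-c-d, whose low values cannot be told apart from CG31808 reads.

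Further subunits of these complexes are listed under other names and are not among the 49. sun, an epsilon subunit of ATP synthase, had 215, 191 and 187 FPKM at 50 days, against 472, 467 and 524 FPKM at 3 days (log2 change -1.19, SE 0.13, adjusted p 0.000397). CG7630, named COX7B in the annotation, had 676, 612 and 587 FPKM at 50 days, against 1053, 1058 and 1285 FPKM at 3 days (log2 change -0.74, SE 0.15, adjusted p 0.00674). Both were lower in all old libraries. CG34172, annotated as COX7AL2, had 0.363, 0.899 and 1.29 FPKM at 50 days, against 6.01, 3.91 and 4.75 FPKM at 3 days (log2 change -1.63, SE 0.21, adjusted p 0.000857), with all old libraries below all young ones.

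Neighbouring pathways were read from lists beside the same background of 20.8% called lower and 18.3% called higher. Complex I, which feeds electrons from NADH, had 24 of 32 tested subunits called lower and 0 higher, with a median log2 change of -0.45 against -0.67 for complexes II to V, and a scaled sum of 0.735 of the 3-day level. The difference between complex I and the others was not tested. ND-42 (-0.76), ND-19 (-0.74) and ND-B18 (-0.72) were lowest. Of 11 citric acid cycle genes 7 were called lower and 1 higher (median -0.67). The citrate synthase kdn averaged 116 FPKM at 50 days and 390.4 FPKM at 3 days (log2 change -1.63, adjusted p 8.49e-05), and the isocitrate dehydrogenase subunit Idh3a (listed as l(1)G0156) had -1.13. The succinyl-CoA ligase subunit ScsbetaA, listed as skap, was higher (0.53, adjusted p 0.0199).

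Carriers that move the substrates and product of ATP synthase gave the lowest log2 change of these lists. The phosphate carrier Mpcp1 had 19.1, 28.1 and 27.5 FPKM at 50 days, against 227, 199.7 and 256 FPKM at 3 days (log2 change -3.05). The adenine nucleotide translocase sesB had 491, 477 and 467 FPKM at 50 days, against 1414, 1237 and 1339.6 FPKM at 3 days (log2 change -1.36). All old libraries were lower for both. Mpcp2, the more abundant phosphate carrier, had -0.73. The aspartate-glutamate carrier aralar1 was called higher (0.47, limma adjusted p 0.0480), close to the threshold. It had 61.8, 53.0 and 44.0 FPKM at 50 days, against 35.3, 41.6 and 45.1 FPKM at 3 days. These deposited values overlapped, and the ages separated only on scaled values. Of the 7 carriers and pore genes, 4 were called lower and 1 higher, with a median of -0.41.

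Genes that build the complexes or maintain mitochondrial DNA were read beside the same 20.8% of all tested genes called lower and 18.3% called higher. Of 14 genes listed as assembly and haem factors, 4 were called lower, 2 higher and 8 were not called (median -0.05). The haem synthesis enzyme Alas had -0.66, Cox10 (listed as CG5037) -0.55, and Cchl, which attaches haem to cytochrome c, -0.49. The 2 called higher were Fdx1 (0.46, limma adjusted p 0.0122) and FeCH (0.25, adjusted p 0.0396). Pbgs was not called (-0.06). The 14 include tam (-0.04, not called), annotated as PolG1, which belongs to the mitochondrial DNA list and is counted there again. Of 13 genes for mitochondrial DNA, its regulators and mitochondrial dynamics, 1 was called lower (Opa1, -0.26) and 0 higher (median 0.02), with TFAM at 12.9 FPKM at 50 days and 15.9 FPKM at 3 days and srl, the fly PGC-1 gene, at 4.67 FPKM at 50 days and 4.03 FPKM at 3 days. Of 11 glycolytic genes 4 were called lower and 1 higher (median -0.24). Lactate dehydrogenase, listed as ImpL3, averaged 56.3 FPKM at 50 days and 14.9 FPKM at 3 days (log2 change 2.01, adjusted p 0.0028), while Gapdh1 had -0.99 and Pfk -0.76.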

How the data were processed

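Polyadenylated RNA of pooled female heads was sequenced as paired-end reads. The submitters' processing notes name fastp, HISAT2, HTSeq and the build BDGP6, with no versions or roles. The authors deposited 1 table whose name says counts; its values are not whole numbers and are read as FPKM, which the authors would have scaled by length and depth. TPM from which some genes were dropped cannot be told apart from this, and would change levels by a constant per library but no scaled change. Of 6 columns, all matched a library, and 0 were left without a sample.

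Libraries were scaled by trimmed-mean factors (30% of ratios and 5% of levels trimmed from each end; 1.00 to 1.11 for 50-day and 0.948 to 0.972 for 3-day libraries). Genes averaging 1 FPKM or more were kept, and log2(FPKM + 1) was fitted with limma 3.58.1 in R 4.3.3 (lmFit, eBayes with trend, age only), with Benjamini-Hochberg adjustment over 8742 genes and a threshold of 0.05. Log2 changes are on this scale, which understates the change of low genes. Printed levels and SD are deposited values, and ratios of means or sums use scaled values. Ratios within a library were compared by exact permutation. The script was tested on simulated data. Alternatives were no factor, a common sum, a pseudocount of 0.1, no filter, a filter at 5 FPKM, a replicate block, removal of each library's length trend (lowess, span 0.3), no mean-variance trend, and each library left out.

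Symbols were matched to the BDGP6.54 annotation: 10896 by their own name and 1002 by a synonym, with 25 left unmatched. Values are given per library for a fixed core of subunits, the lowest and highest change of each complex, the L paralogues and the tested members not called lower. From each pathway list at most 3 called genes of the largest change are named, with others added after their values were seen. Members, lists and markers were chosen with earlier results of these data known. Promoter and protein sequences were not analysed here.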

Additional observations from a re-analysis of the deposited data

How the results depend on the processing

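Under 14 alternative fits the number of members called lower at 50 days stayed within 1.5 times of 33. It was 29 to 33 with a single library left out, lowest without the third 50-day library, and 31 to 35 under the other alternatives. No member was called higher in any of them, and 34 of 35 subunits had a log2 change below 0 in each, or 35 with libraries rescaled to the same sum. Of the 33 subunits called, 28 kept the call under every alternative. The number of all genes called was 3418, with 2619 to 3718 when a library was left out. Without the trimmed-mean factors the median log2 change of all genes was -0.10 and that of the subunits -0.78, and with libraries rescaled to the same sum these were -0.26 and -0.95. COX7A was reversed by that rescaling, to -0.16 (limma adjusted p 0.305).

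Same-numbered libraries of the ages had correlations of -0.209, -0.104 and -0.235 in their deviations from the group means. These values gave no sign of pairing by number, but they cannot show whether same-numbered libraries were handled together. With the replicate block 31 members were called lower and 2702 genes were called in all. The cause of these changes was not tested. Sequencing depth is not given, so the counting error of levels near 0, those of the L paralogues among them, could not be estimated.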

Other observations

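Further marker lists were read as counts beside the 20.8% of tested genes called lower and 18.3% called higher at 50 days. Photoreceptor markers had 3 of 6 called lower and 0 higher (median log2 change -0.42). Of 5 glial markers 2 were called lower and 1 higher (median -0.29), with sums of 571 to 628 FPKM at 50 days and 798 to 923 FPKM at 3 days. Hemocyte markers had 1 of 5 called lower and 1 higher (median 0.29). Their sums were 40.9 to 57.3 FPKM at 50 days and 55.8 to 88.7 FPKM at 3 days. Col4a1, the one called lower, averaged 15.2 FPKM at 50 days and 51.5 FPKM at 3 days. Hml, NimC1, eater and srp had log2 changes above 0, and of these srp was called higher (1.46). The testis list had 1 gene that passed the filter, bol, which averaged 20.6 FPKM at 50 days and 30.9 FPKM at 3 days (log2 change -0.46) and was called lower.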
